A study of Morchella importuna with 4 samples.

Results

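The genes described here are those of the respiratory chain and the mitochondrial ATP synthase of the morel *Morchella importuna*. They were found by the words of their descriptions (for example NADH dehydrogenase, ubiquinol, cytochrome c, ATP synthase, alternative oxidase and coenzyme Q), with vacuolar ATPases, P450 enzymes, cytochrome c peroxidase and succinate dehydrogenase left out. The words picked 57 of the 11599 genes in the table. Gene expression was compared between 2 areas of the same plates at sclerotial initiation (SI), when the first sclerotia, compact masses of mycelium, begin to form. SII is tissue from the sclerotial area in the plate centre, and SIO is tissue from the hyphal area at the margin. One strain was grown without treatment on PDA, a potato glucose agar, at 20 °C. Tissue of 2 individuals, which the methods give as Petri dishes, was mixed for each library, and 2 libraries were made per area. The labels name no cell type with agreed marker genes, so they were not checked against one.

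In mitochondria, electrons from NADH pass through complex I, ubiquinone (coenzyme Q), complex III, the small soluble protein cytochrome c and complex IV (cytochrome c oxidase) to oxygen. Complexes I, III and IV pump protons, and ATP synthase uses the returning protons to make ATP. Each complex joins a few core subunits that hold the redox centres or active sites with many smaller subunits, and complex IV also needs dedicated assembly proteins that supply its copper and heme. Many fungi can bypass the proton pumps with single-protein NADH dehydrogenases and with an alternative oxidase that passes electrons from ubiquinol to oxygen.

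Levels are given as FPKM, fragments per kilobase of gene, scaled to the mapped fragments of the library, which can be compared between genes. Between 23108142 and 27992918 reads per library lay behind them. The SIO libraries were more alike than the SII libraries, with an SD of the log2 difference between replicates of 0.68 in SII and 0.23 in SIO over all genes tested, and of 0.53 in SII and 0.21 in SIO over the respiratory genes. A gene was tested with limma on log2(FPKM + 1) if it reached 1 FPKM in 2 or more libraries. It was counted as differentially expressed (a DEG) if its adjusted p was under 0.01 and its log2 fold change, SII over SIO, was 1 or more in either direction. Of 8906 genes tested, 914 were upregulated in SII (10.3%) and 1084 downregulated (12.2%). An unadjusted p under 0.05 in limma was far more common, with 5210 of the 8906 genes, and 27 of the 53 respiratory genes tested. Median-ratio scaling of the libraries gave 981 upregulated and 743 downregulated genes. In these bulk libraries, fewer cells that express a gene and less RNA per cell cannot be told apart.

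Most respiratory genes were not DEGs between SII and SIO, and the DEGs among them went both ways. Of the 57 genes, 53 were tested, of which 4 were upregulated, 4 were downregulated and 45 were not DEGs. The shares of all genes tested were 10.3% and 12.2%. With 53 genes both counts lay only a few genes below those shares, and the difference was not tested. The upregulated genes encode cytochrome c (JGI 528800), a copper chaperone of cytochrome c oxidase (JGI 7081), a protein similar to the oxidase biogenesis factor Cmc1 (JGI 576557) and ATP synthase subunit g (JGI 566155). The downregulated genes encode the oxidase assembly protein cox15 (JGI 549046), the 49 kDa subunit (JGI 574806) and the "304 kDa" subunit (JGI 192949) of complex I, and a flavocytochrome c (JGI 534241). The log2 fold changes of the 53 genes ran from -2.36 to 3.02, with a median of 0.09, against -0.11 over all genes tested. Of the 53, 43 were smaller than 1 in size, as were 5426 of all 8906 genes tested. Both SII libraries lay above both SIO libraries for 25 genes and below them for 16 (35.6% and 43.9% of all genes tested), and the libraries overlapped for 12.

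**Figure D1:**
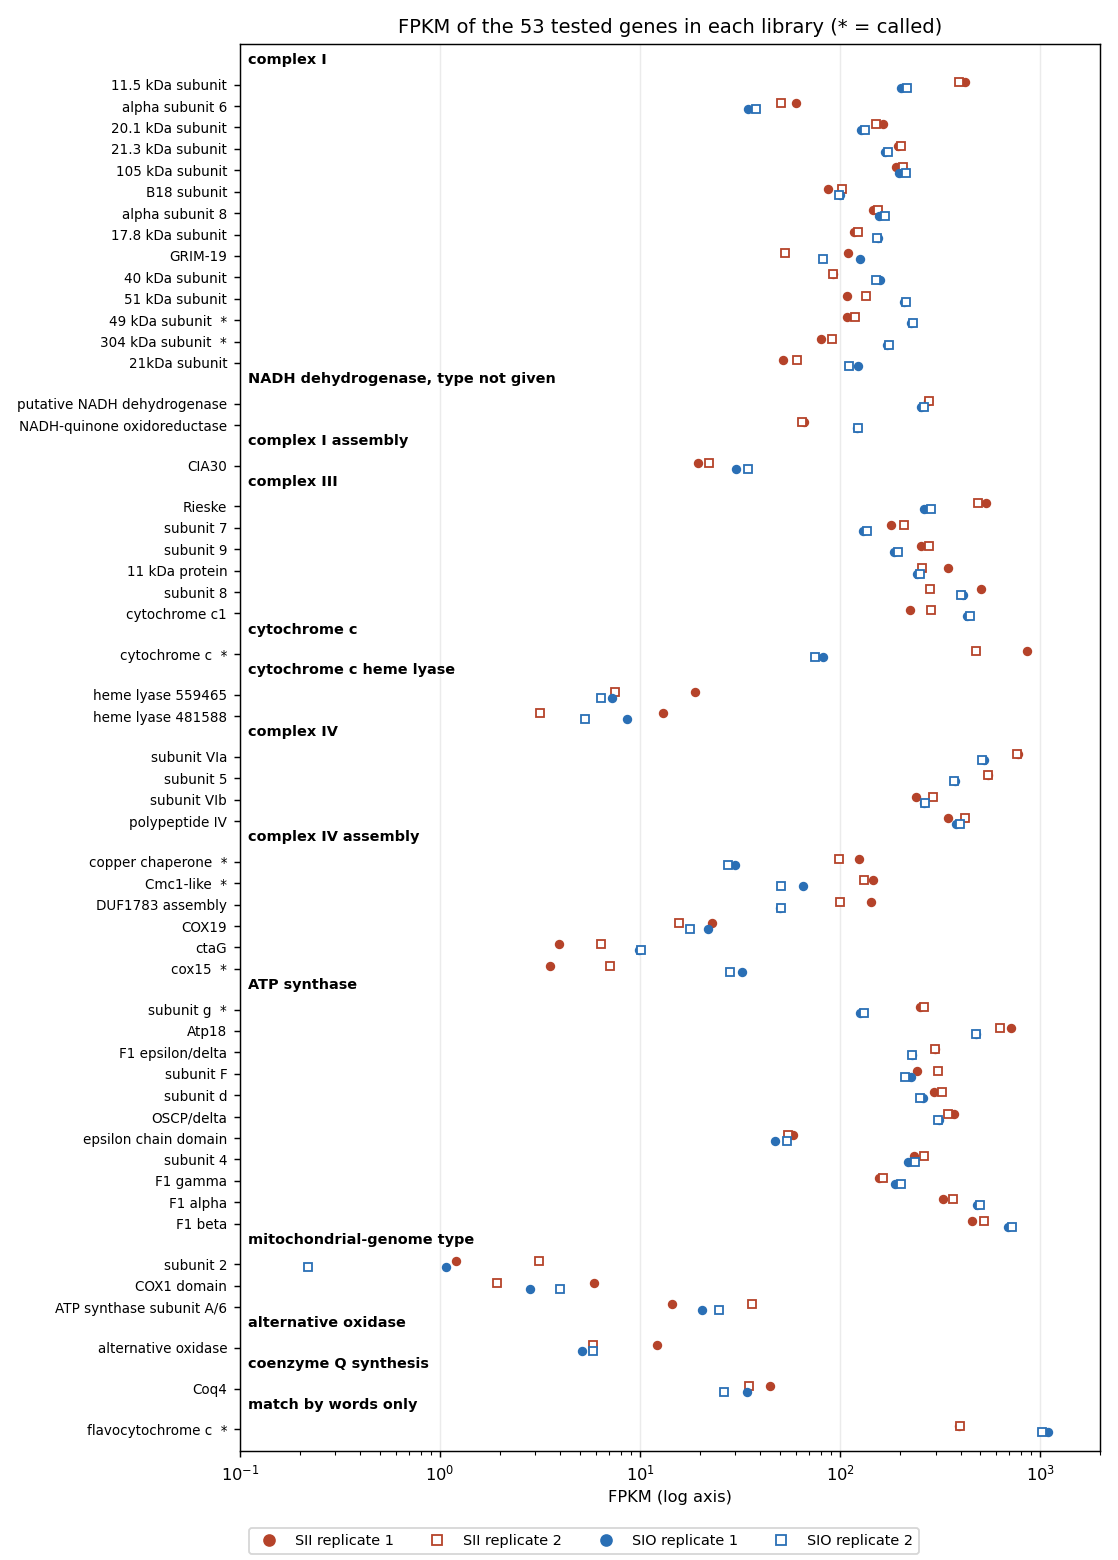
FPKM (log axis) of the 53 tested respiratory genes in each library, by complex, with SII in red above SIO in blue, replicate 1 as filled circles, replicate 2 as open squares, and a star for DEGs. Cytochrome c and cox15 stand out by the distance between the areas, and the areas lie closer together for most subunits.

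Summed over all 57 genes, the level was 11443 and 10993 FPKM in the SII libraries, against 10490.0 and 10518 FPKM in the SIO libraries. As a share of all FPKM in a library, the sum was 1.22% ± 0.0371 in SII and 1.32% ± 0.00017 in SIO (SD, n = 2 per area), because the FPKM of all genes added up to more in SII. Which area had the higher sum therefore changed with the scale for complex III (1920.1 ± 176 FPKM or 0.209% in SII, against 1689 ± 35.8 FPKM or 0.212% in SIO) and for ATP synthase (3471 ± 101 FPKM or 0.377% in SII, against 3292 ± 46.5 FPKM or 0.413% in SIO). For complex I both scales were lower in SII, with 1931 ± 5.53 FPKM (0.210%), against 2158 ± 4.08 FPKM (0.271%) in SIO. For complex IV both were higher in SII, with 1965 ± 86.5 FPKM (0.214%), against 1544 ± 4.72 FPKM (0.194%) in SIO. An exact two-sided permutation test of 2 libraries against 2 has a smallest p of 0.333, so the sums are given without a test.

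Cytochrome c, the mobile carrier between complexes III and IV, showed the largest change of the respiratory genes tested. JGI 528800 had 859.7 and 478 FPKM in the SII libraries, against 81.9 and 74.9 FPKM in the SIO libraries. The areas did not overlap, and SII replicate 1 was the highest of the 4. The mean was 8.54-fold higher in SII, with a log2 fold change of 3.02 (standard error, SE, 0.32, limma adjusted p = 0.0048). In SII cytochrome c was among the most abundant respiratory transcripts. In SIO it was below every tested complex III and complex IV subunit except the weakly expressed row with a COX1 domain (JGI 497667). Relative to the Rieske protein of complex III, its FPKM was 1.61 and 0.981 in SII, against 0.312 and 0.262 in SIO. Cytochrome c heme lyase attaches heme to cytochrome c and cytochrome c1, and 2 genes were described as such. JGI 559465 had 18.8 and 7.46 FPKM in SII, against 7.21 and 6.36 FPKM in SIO (log2 fold change 0.73, limma adjusted p = 0.23). JGI 481588 had 13.1 and 3.18 FPKM in SII, against 8.65 and 5.33 FPKM in SIO (log2 fold change -0.027, limma adjusted p = 0.98). Neither was a DEG, and SII replicate 1 was the highest library for both. The protein match of JGI 481588 is a mitochondrial acetylornithine aminotransferase, so its identity rests on its domain name alone.

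Of the 6 assembly genes of complex IV, 3 were DEGs in limma, and of its 4 nuclear subunit genes none was. Over all genes tested 22.4% were DEGs, and the difference between these small classes was not tested. Under median-ratio scaling 3 assembly genes were upregulated and 0 downregulated. With the trend with gene length removed, as described below, the counts were 2 and 0. Of the 4 subunit genes, 2 had an unadjusted p under 0.05, as had 5210 of all 8906 genes tested. The copper chaperone gene JGI 7081, whose description names a carrier of copper to the oxidase, had 125 and 98.6 FPKM in SII, against 29.8 and 27.5 FPKM in SIO (3.90-fold, log2 fold change 1.92 ± 0.18 SE, limma adjusted p = 0.0042). The Cmc1-like gene JGI 576557 had 146 and 131 FPKM in SII, against 65.2 and 50.5 FPKM in SIO (log2 fold change 1.26 ± 0.19 SE, limma adjusted p = 0.0091). In yeast, Cmc1 is a small copper-binding protein needed for the oxidase. In both genes the SII libraries lay well above the SIO libraries.

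The cox15 gene JGI 549046 went the other way. In yeast, Cox15 takes part in making heme A, the form of heme that only cytochrome oxidase carries. It had 3.54 and 7.08 FPKM in SII, against 32.4 and 28.0 FPKM in SIO (5.69-fold higher in SIO, log2 fold change -2.36 ± 0.33 SE, limma adjusted p = 0.0079). The areas did not overlap, and SII replicate 2 had the higher level of the SII libraries. The 3 remaining assembly genes were not DEGs. JGI 533892, a DUF1783 protein described as a cytochrome oxidase assembly factor, had 142 and 100.3 FPKM in SII, against 49.98 and 50.9 FPKM in SIO (log2 fold change 1.23, limma adjusted p = 0.0128). JGI 559087, similar to ctaG, the bacterial counterpart of a protein that gives copper to the oxidase, had 3.95 and 6.36 FPKM in SII, against 9.91 and 10.1 FPKM in SIO (log2 fold change -0.87, limma adjusted p = 0.0495). JGI 533576, similar to COX19, was between 15.6 and 22.9 FPKM in all 4 libraries, with the areas overlapping.

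**Figure D2:**
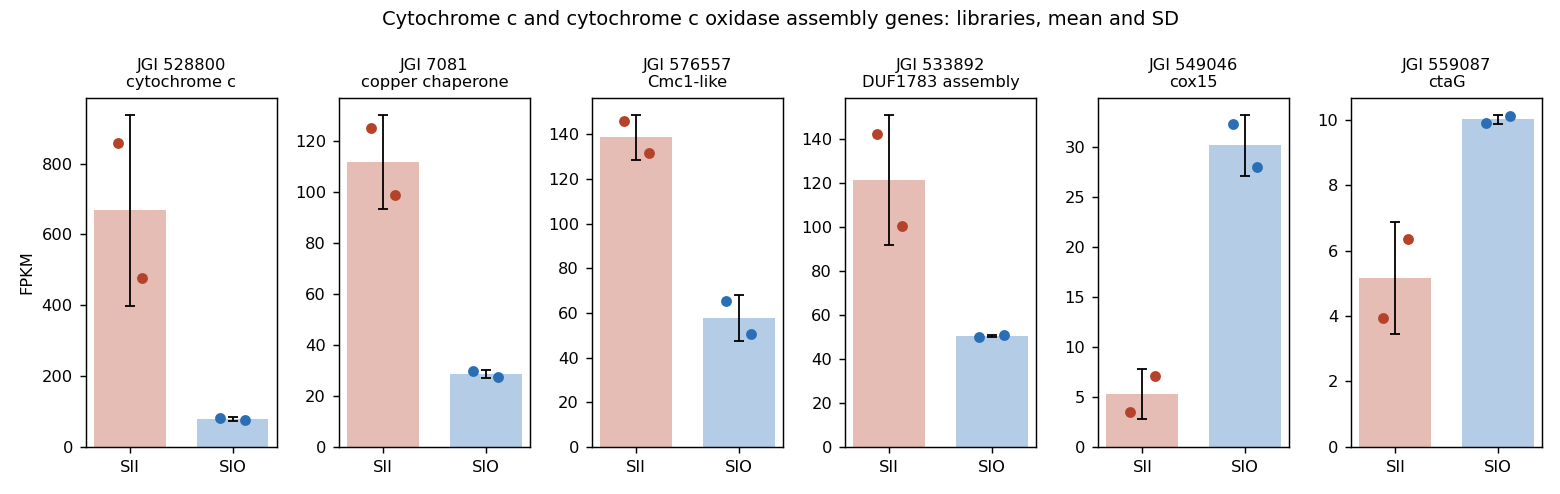
FPKM of cytochrome c and of 5 complex IV assembly genes in SII (red, left) and SIO (blue, right), with bars for the mean, points for the 2 libraries of each area and error bars for the SD. Cytochrome c, the copper chaperone, the Cmc1-like gene and the DUF1783 gene lie higher in both SII libraries, and cox15 and ctaG lie lower in both.

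Among the nuclear subunit genes of complex IV, subunit VIa (JGI 567270) was the most abundant, with 774 and 769 FPKM in SII, against 524 and 513 FPKM in SIO (log2 fold change 0.57, limma adjusted p = 0.0352). Subunit 5 (JGI 482335) had 546 and 548 FPKM in SII, against 374 and 371 FPKM in SIO (log2 fold change 0.55, limma adjusted p = 0.0348). Both lay higher in SII without overlap, by less than the threshold of 1. Subunit VIb (JGI 536423) and polypeptide IV (JGI 480859) overlapped between the areas, with log2 fold changes of -0.0068 and -0.032.

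In complex I, which takes electrons from NADH, 2 of 14 tested genes were downregulated and none was upregulated. Of all genes tested, 12.2% were downregulated and 10.3% upregulated. The 49 kDa subunit, which takes part in binding ubiquinone, had 108 and 119 FPKM in SII, against 226 and 231 FPKM in SIO (2.01-fold higher in SIO, log2 fold change -1.001 ± 0.14 SE, limma adjusted p = 0.0082). The "304 kDa" subunit had 80.3 and 90.9 FPKM in SII, against 172 and 175 FPKM in SIO (2.03-fold higher in SIO, log2 fold change -1.01 ± 0.15 SE, limma adjusted p = 0.0085). The areas were well apart for both genes, whose fold changes were only just past the threshold. The length behind the FPKM of JGI 192949 is 1071 bases, which is too short to encode a protein of 304 kDa, and the description may have lost a decimal point. The same holds for JGI 572046, described as a 105 kDa subunit, with 282 bases.

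The 51 kDa subunit (JGI 531540), which binds NADH, had 108 and 135 FPKM in SII, against 209 and 214 FPKM in SIO (log2 fold change -0.80, limma adjusted p = 0.0211). The 21kDa subunit (JGI 533973) had 51.7 and 61.2 FPKM in SII, against 122 and 111 FPKM in SIO, and missed the threshold on p (log2 fold change -1.04, limma adjusted p = 0.0102). The 11.5 kDa subunit (JGI 603608) had 419 and 394 FPKM in SII, against 202 and 216 FPKM in SIO, and missed it on the fold (log2 fold change 0.96, limma adjusted p = 0.0094). It was the most abundant complex I subunit in SII and lay higher there. The complex I genes thus spread over about the same distance on both sides of zero. Of the 14, 10 were negative, as were 4827 of all 8906 genes tested. The NAD(P)-binding 40 kDa subunit (JGI 571657) was lower in both SII libraries (log2 fold change -0.74), and alpha subunit 6 (JGI 517486) was higher in both (log2 fold change 0.59). For the other 7 tested genes, which include GRIM-19 and the B18 subunit, log2 fold changes lay between -0.41 and 0.28. A pair of rows described as a 9.5 kDa subunit (JGI 510529 and JGI 607881) were listed at 0 in all 4 libraries and were not tested.

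The assembly protein CIA30 (JGI 510670), an intermediate-associated factor of complex I, had 19.4 and 22.1 FPKM in SII, against 30.2 and 34.6 FPKM in SIO (log2 fold change -0.62, limma adjusted p = 0.0451). A pair of genes described as NADH dehydrogenases could not be placed in complex I or among the single-protein enzymes. JGI 562877 had 66.0 and 64.3 FPKM in SII, against 122 and 123 FPKM in SIO (log2 fold change -0.90, limma adjusted p = 0.0094). JGI 548801 had 274 and 277 FPKM in SII, against 254 and 262 FPKM in SIO (log2 fold change 0.092). The first lay lower in SII by just under the fold threshold, and the second was nearly level.

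None of the 6 complex III genes was a DEG in limma, against 22.4% of all genes tested. The redox subunits of the complex differed in opposite directions. An unadjusted p under 0.05 was found for 4 of the 6, and for 5210 of all 8906 genes tested. The Rieske iron-sulfur protein (JGI 529678), which takes the first electron from ubiquinol, had 535 and 487 FPKM in SII, against 263 and 286 FPKM in SIO (log2 fold change 0.89 ± 0.16 SE, limma adjusted p = 0.0122). Cytochrome c1 (JGI 495879), which receives that electron and hands it to cytochrome c, had 223 and 284 FPKM in SII, against 429.6 and 444 FPKM in SIO (log2 fold change -0.79 ± 0.18 SE, limma adjusted p = 0.0252). The libraries of the areas overlapped for neither gene, and both stayed short of the threshold on fold and on p. The ratio of Rieske to cytochrome c1 FPKM was 2.39 and 1.71 in SII, against 0.611 and 0.644 in SIO. Subunit 7 (JGI 526050), subunit 9 (JGI 537938) and the 11 kDa protein (JGI 545929) had log2 fold changes of 0.53, 0.48 and 0.28 and were higher in both SII libraries. Subunit 8 (JGI 166708), the most abundant of the complex by mean FPKM over the 4 libraries, had 505 and 281 FPKM in SII, against 413 and 401 FPKM in SIO, so the SII libraries lay on either side of SIO.

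In ATP synthase, 1 of 11 genes was upregulated and none was downregulated, against 10.3% and 12.2% of all genes tested. Subunit g, a membrane subunit that in yeast takes part in pairing the enzymes into dimers, had 252 and 264 FPKM in SII, against 125 and 131 FPKM in SIO (2.01-fold, log2 fold change 1.002 ± 0.14 SE, limma adjusted p = 0.0078). The areas were well apart, with a fold change just past the threshold. The subunits that form the catalytic sites lay lower in SII and were not DEGs. F1 beta (JGI 482419) had 458 and 524 FPKM in SII, against 693 and 726 FPKM in SIO (log2 fold change -0.53, limma adjusted p = 0.0532). F1 alpha (JGI 531243) had 325 and 368 FPKM in SII, against 484 and 498 FPKM in SIO (log2 fold change -0.50, limma adjusted p = 0.054). The beta to alpha ratio was nearly the same everywhere, at 1.41 and 1.43 in SII and 1.43 and 1.46 in SIO.

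Of the other 9 ATP synthase genes, 8 had positive log2 fold changes and only F1 gamma (JGI 534156), the central stalk, had a negative one (-0.28). Over all genes tested, 4079 of 8906 were positive. Atp18 (JGI 577325), a small membrane subunit and the most abundant of the 9, had 712 and 626 FPKM in SII, against 475 and 476 FPKM in SIO (log2 fold change 0.49, limma adjusted p = 0.0628). Besides subunit g, the remaining 6, among them subunit d, subunit F, subunit 4 and OSCP, which joins the stator stalk to F1, had log2 fold changes of 0.12 to 0.38. Alpha and beta together amounted to 0.299 and 0.337 of the summed FPKM of the other ATP synthase genes in SII, against 0.566 and 0.582 in SIO. The fold changes of the enzyme's genes thus differed in sign, and differences between its genes were not tested.

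In complex I all 3 genes placed in the core were lower in SII, but so were 7 of the 11 others, and the lowest log2 fold change was that of the 21kDa subunit, counted with the others. Over the complexes, 7 catalytic core genes (the 51, 49 and "304" kDa subunits of complex I, Rieske, cytochrome c1, F1 alpha and F1 beta) were grouped after their values had been seen, so the group carries no test. Left out were 3 tested rows for subunits usually encoded by the mitochondrial genome (JGI 461602, JGI 497667 and JGI 556032). These rows were weakly expressed, with log2 fold changes of 0.92, 0.043 and 0.036, and none was a DEG. Of the 7, 6 were lower in both SII libraries and Rieske was higher in both, with a median log2 fold change of -0.79 and 2 downregulated DEGs. Of all genes tested, 43.9% were lower and 35.6% higher in both SII libraries, and 12.2% were downregulated and 10.3% upregulated DEGs. The other 28 tested subunit genes, also without the rows left out, had a median of 0.21, 17 positive values and 1 upregulated DEG. Over all genes tested, 4079 of 8906 values were positive. The "304 kDa" gene, 1 of the 2 DEGs, was placed in the core on the assumption that its description lost a decimal point. A subunit named only by its mass may belong to the core and was counted with the others. Summed, the core genes had 1924 ± 121 FPKM in SII, against 2525 ± 69.2 FPKM in SIO (SD, n = 2 per area), while the others had 7364 ± 104 FPKM in SII, against 6157 ± 21.8 FPKM in SIO. In complex I alone, the core genes amounted to 0.182 and 0.217 of the summed FPKM of the others in SII, against 0.392 and 0.403 in SIO. The other complex I genes had a median log2 fold change of -0.077, which turned to 0.02 under median-ratio scaling.

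**Figure D3:**
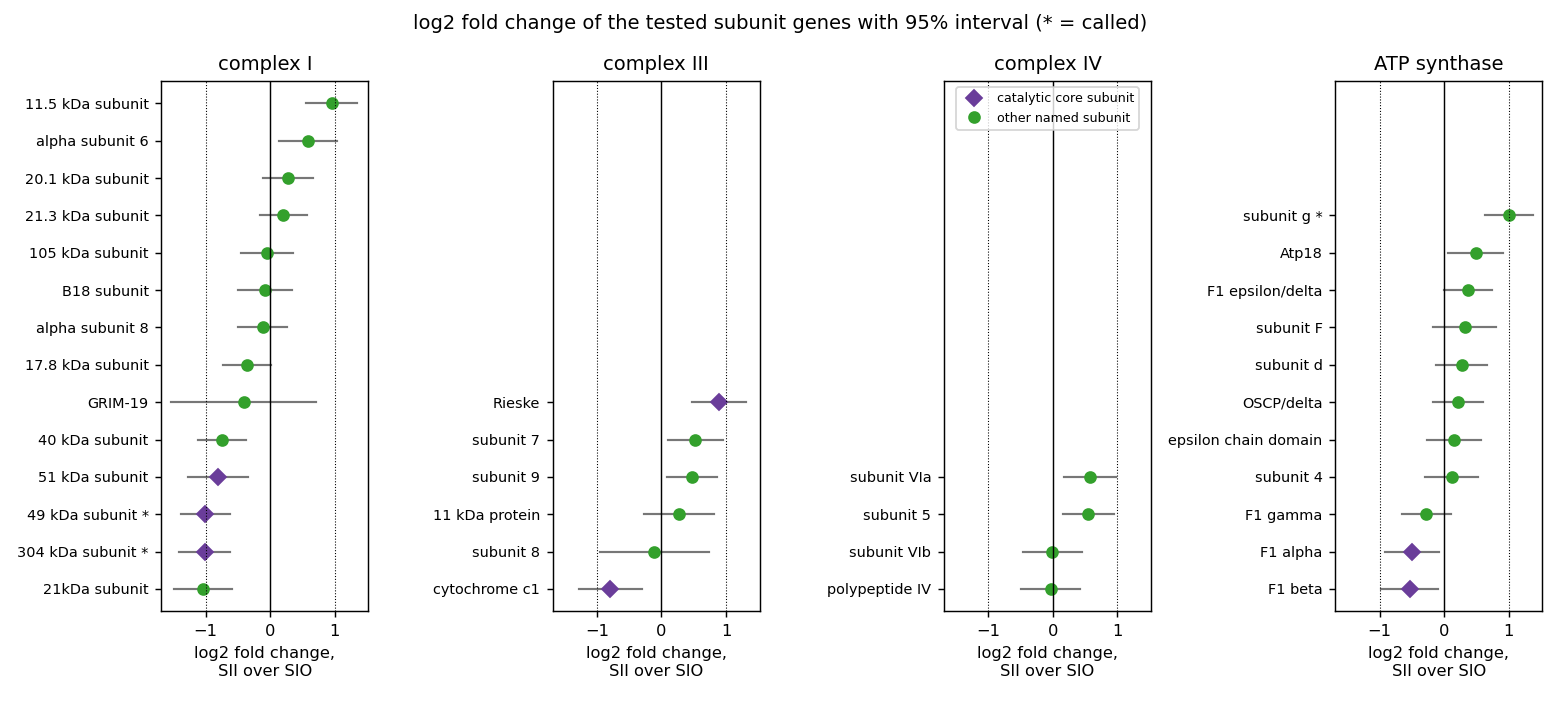
log2 fold change (SII over SIO) of the tested subunit genes of each complex, with 95% intervals, catalytic core subunits as purple diamonds and other named subunits as green circles, and a star for DEGs. Dotted lines mark the threshold of 1 in either direction. Rows for subunits usually encoded by the mitochondrial genome are not drawn. Of the 7 diamonds, 6 lie left of zero and Rieske lies right of it, and 17 of the 28 circles lie right of zero.

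The 7 core genes were also longer by their median. Gene length, as it stands behind the FPKM, had a median of 1407 bases for the 7 core genes and of 697 bases for the other subunit genes. Over all genes tested, the log2 fold change fell weakly with length (Spearman rho -0.19 across 8905 genes, which are not independent replicates). Over the respiratory genes rho was -0.46 (n = 53), a description in which all points share the same 4 libraries. All 4 upregulated respiratory genes were among the 35 of up to 1000 bases, and the 4 downregulated ones were among the 18 longer ones. Of all genes tested, 14.2% of those of up to 1000 bases were upregulated and 8.17% downregulated, against 8.25% upregulated and 14.2% downregulated above 1000 bases. Among all genes, the median log2 fold change was 0.14 up to 1000 bases and -0.39 above 2000 bases. With the trend over all genes removed from each library, the core genes had a median of -0.58, with 0 DEGs, and the other subunit genes 0.14. The core group had been formed after its values were seen. The trend removed was the weak one of all genes, not that of the respiratory genes. Whether length lies behind the difference between the groups was not tested. The same correction left 3 upregulated and 0 downregulated respiratory genes, with 22 of 53 at an unadjusted p under 0.05 in limma. The fold changes of the genes that were no longer DEGs kept their direction. They were -2.16 for cox15 JGI 549046 (limma adjusted p = 0.0115), -1.02 for the "304 kDa" subunit JGI 192949 (0.0137) and -1.03 for the flavocytochrome c JGI 534241 (0.0126), all still past the fold threshold. They were -0.82 for the 49 kDa subunit JGI 574806 and 0.85 for subunit g JGI 566155, which fell below it.

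**Figure D4:**
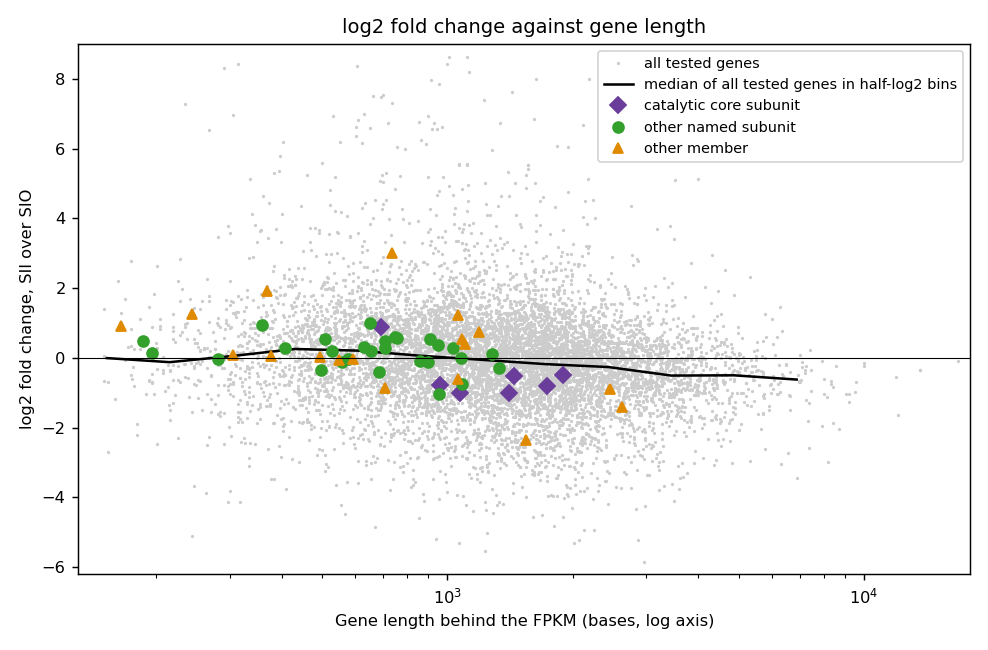
log2 fold change (SII over SIO) against gene length in bases (log axis) for all genes tested (grey) and for the respiratory genes, with the median of all genes in bins of length as a line. Catalytic core subunits (purple diamonds) lie mostly at greater lengths and below the line, and other named subunits (green circles) lie mostly at shorter lengths and on both sides of it.

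The alternative oxidase gene (JGI 548750) was weakly expressed, with 12.2 and 5.82 FPKM in SII, against 5.14 and 5.85 FPKM in SIO (log2 fold change 0.55, limma adjusted p = 0.27). The areas overlapped and only SII replicate 1 was raised. Its protein match is an MFS transporter, so its identity rests on its description. Coq4 (JGI 560164), needed for making coenzyme Q, had 44.5 and 35.2 FPKM in SII, against 34.1 and 26.4 FPKM in SIO (log2 fold change 0.39, limma adjusted p = 0.21). Neither gene was a DEG.

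The table has 5 rows that matched subunits that in fungi are usually encoded by the mitochondrial genome, and whether these rows lie in that genome was not tested. All were weakly expressed beside the nuclear subunits. The ATP synthase subunit A gene (JGI 556032), the proton channel, had 14.5 and 36.3 FPKM in SII, against 20.3 and 24.8 FPKM in SIO. The row with a COX1 domain (JGI 497667), the central subunit of complex IV, had 5.91 and 1.93 FPKM in SII, against 2.81 and 3.998 FPKM in SIO. In both, the SII libraries lay on either side of SIO. The 3 rows for complex I subunits (JGI 461602, JGI 531028 and JGI 591241) stayed at or below 3.12 FPKM in every library, and 2 of them were too low to be tested.

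One gene matched by the words "cytochrome c" without belonging to the chain. JGI 534241, a flavocytochrome c with similarity to fumarate reductase, had 394 and 397 FPKM in SII, against 1095 and 1018 FPKM in SIO (2.67-fold higher in SIO, log2 fold change -1.41 ± 0.16 SE, limma adjusted p = 0.0052). It was the most abundant of the 57 genes in SIO. Without it, 3 of the downregulated DEGs remain.

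Of 17 further genes linked to oxidative phosphorylation that the words did not pick, 1 was upregulated and 1 was downregulated (10.3% and 12.2% of all genes tested). Their median log2 fold change was -0.48. Besides succinate dehydrogenase they include assembly factors, prohibitins, electron transfer flavoproteins and cytochrome c peroxidase, so the median is not that of a single pathway. The upregulated one, JGI 542569, is described as an alternative NADH dehydrogenase, an enzyme that feeds electrons to ubiquinone without pumping protons. It had 112 and 93.4 FPKM in SII, against 10.7 and 15.0 FPKM in SIO (log2 fold change 2.91 ± 0.23 SE, limma adjusted p = 0.0031). The downregulated one, JGI 564141, is described as the chaperone BCS1, which in yeast inserts the Rieske protein into complex III. It had 3.09 and 3.47 FPKM in SII, against 23.4 and 22.3 FPKM in SIO (log2 fold change -2.48 ± 0.18 SE, limma adjusted p = 0.0028). A second gene described as bcs1, JGI 602389, had 29.9 and 15.0 FPKM in SII, against 5.90 and 6.19 FPKM in SIO and was not a DEG (log2 fold change 1.66, limma adjusted p = 0.0214). The areas overlapped for none of the 3 genes.

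Succinate dehydrogenase, complex II of the chain and an enzyme of the citric acid cycle, was lower in both SII libraries for all 4 of its genes. Of all genes tested, 43.9% were lower in both SII libraries. None of the 4 was a DEG in limma, against 22.4% of all genes tested. All 4 had an unadjusted p under 0.05, as had 5210 of all 8906 genes tested. The largest difference was in JGI 578509, with 50.7 and 58.0 FPKM in SII, against 113 and 104 FPKM in SIO (log2 fold change -0.99, limma adjusted p = 0.0101). The sum of the 4 genes was 371 ± 21.3 FPKM in SII, against 626 ± 72.6 FPKM in SIO (SD, n = 2 per area). Cytochrome c peroxidase Ccp1 (JGI 535582), which in yeast uses electrons of cytochrome c to reduce hydrogen peroxide, had 649.8 and 483 FPKM in SII, against 345 and 331 FPKM in SIO (log2 fold change 0.73, limma adjusted p = 0.0417). It lay higher in SII and was not a DEG.

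The number of DEGs depended on which libraries were kept, over all genes tested and not only among the respiratory genes. Leaving out a library leaves 1 in its area, so the variance rests on the other area. Calls became few over all genes when an SIO library was dropped, so their loss says nothing particular about respiratory genes. With any 1 library dropped, the median log2 fold change of the respiratory genes lay between 0.069 and 0.19, against 0.09 with all libraries. Over all genes tested it lay between -0.18 and -0.040, against -0.11. Cytochrome c and the copper chaperone JGI 7081 were DEGs in 11 of 14 alternative settings, with log2 fold changes of 2.60 to 3.44 and of 1.75 to 2.09. The 49 kDa subunit was a DEG in 6, the "304 kDa" subunit in 5, subunit g in 6, cox15 in 8, and the Cmc1-like gene and the flavocytochrome c in 9 of the 14.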

How the data were processed

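RNA of 2 libraries per area was sequenced. The submitters' processing notes name TopHat2 2.1.0 for alignment, while differential expression was computed by the authors with DEGSeq, per the paper's methods. The authors' deposited table gives FPKM per library, normalized for gene length and library size, and a signal per area, which is the authors' mean of scaled read counts. The program that counted reads and the genome build are not given in the sources used here. The table also holds the authors' own fold changes, p-values and q-values, which were not used. Columns were matched to an area by name, and replicate numbers are those of the columns.

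Here, FPKM values were tested with limma 3.58.1 in R 4.3.3 on log2(FPKM + 1), with a pseudocount of 1, a design of area alone and eBayes moderation along a mean-variance trend. Genes with at least 1 FPKM in 2 of the 4 libraries were kept, and p-values were adjusted by the Benjamini-Hochberg method over all 8906 genes. Fold changes on this scale understate changes of low genes. Whole reads per library and gene lengths in whole bases were recovered from the FPKM and the mean scaled counts (100% of values whole within 0.01 of a read, and 100% of 10439 lengths within 0.05 of a base), which gave 23108142 to 27992918 reads per library. SIO totals cover the genes with a read in SII. Of the tested respiratory genes, 4 had under 100 reads in some library. P-values measure the spread between libraries of pooled plates. Sums and figures used pandas 2.3.3, numpy 2.4.6, scipy 1.17.1 and matplotlib 3.10.9.

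Genes were named by a rule (DEGs, the 2 most abundant of each class, cytochrome c, alternative oxidase and genes at 0). Others, including the 51, 40 and 21kDa subunits, cytochrome c1, F1 alpha, F1 gamma, ctaG, COX19 and the genes outside the 57, were chosen after their values were seen. The members, classes and lists were chosen with earlier results of these data known. The alternatives tried are given in the closing section. Sequences and genome positions of these genes were not used here.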

Additional observations from a re-analysis of the deposited data

How the results depend on the processing

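No direction of a named respiratory gene that was a DEG turned under any alternative, but counts moved. Without a filter limma called 0 genes higher and 0 lower in SII, and 0 respiratory genes either way, with 5305 genes and 30 respiratory genes at an unadjusted p under 0.05, while limma-voom on recovered reads, with the filter, called 1980 genes, among them 3 respiratory genes higher and 4 lower. Of 4 respiratory genes lower in SII, 1 was called under median-ratio scaling (median log2 fold change of the respiratory genes 0.18). It was the flavocytochrome c, which does not belong to the chain. Subunit g also lost its call there (adjusted p in limma 0.0103), and the DUF1783 gene gained one (0.0090). Under quantile normalization 2 were called lower, the flavocytochrome c and the 49 kDa subunit (median 0.16). Without the mean-variance trend 2 were called higher and 2 lower. Removal of the length trend gave 979 genes higher and 660 lower, 0 respiratory genes lower and a median of -0.0065, although cox15, the "304 kDa" subunit and the flavocytochrome c kept log2 fold changes of -2.16, -1.02 and -1.03 with adjusted p in limma of 0.0115 to 0.0137. An adjusted p under 0.05 gave 1386 genes higher and 1876 lower. Leaving out one library at a time gave 76 to 1778 genes higher and 2 to 2133 lower, with 0 to 6 respiratory genes higher, 0 to 6 lower and a median of 0.069 to 0.19. The lone library is then assumed to vary like the other area, and the low counts are those without an SIO library. With the column number as a replicate block, 3 respiratory genes were called higher and 1 lower, and the 49 kDa and "304 kDa" subunits, subunit g and the flavocytochrome c were no longer called (adjusted p in limma 0.0169, 0.0162, 0.0169 and 0.0102). The numbers are not stated to mark shared plates, and deviations of same-numbered libraries correlated at 0.20 across genes. Other alternatives (pseudocount 0.1, a filter of 10 FPKM) gave 4 higher and 4 or 5 lower. Depth limits only the weakest genes: the mitochondrial-type row JGI 461602 had 1 to 12 reads in a library.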

Other observations

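The authors' mean scaled SIO counts cannot be made from the 2 SIO libraries of the table alone. Subtracting these leaves whole numbers for 100% of values (within 0.05 of a read), as a further SIO library of 21730674 reads would. It was not used as a replicate, and its values are given here as reads per 1000000 recovered reads. Cytochrome c JGI 528800 had 60.7 in it, against means of 496 in SII and 58.0 in SIO. The copper chaperone JGI 7081 had 10.4, against 41.6 in SII and 10.6 in SIO. For cox15 JGI 549046 it had 28.9, against 8.28 in SII and 47.0 in SIO. The 49 kDa subunit JGI 574806 had 310.2, against 162 in SII and 324 in SIO, and subunit g JGI 566155 had 84.0, against 169 in SII and 84.1 in SIO. The DUF1783 gene JGI 533892 had 94.2, against 129.5 in SII and 53.8 in SIO. For cytochrome c, the copper chaperone, subunit g and the 49 kDa subunit the further library thus lay near the SIO mean, and for cox15 and the DUF1783 gene it lay about midway between the areas. It lay on the SII side of the SIO mean for 35 of the 53 tested respiratory genes (66.0%) and for 60.1% of the 8905 tested genes with such values.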
